A study of Mus musculus with 6 samples.

Results

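The syntaxins are a family of membrane proteins that act as SNAREs, the proteins that fuse transport vesicles with their target membranes. A target-side syntaxin (a Qa-SNARE) joins partner Q-SNAREs and an R-SNARE of the vesicle in a helical bundle that pulls the membranes together. The ATPase NSF then takes the bundle apart, and Sec1/Munc18 (SM) proteins guide its assembly. Each syntaxin works at particular membranes, and in muscle cells syntaxin 4 is known for the insertion of the glucose transporter GLUT4 into the plasma membrane. The 10 genes described here were found by their listed symbols, and each had 1 probe set, so 10 of the 19938 singly named genes on the array were members. They work at endosomes and the trans-Golgi network (Stx12, Stx7, Stx8, Stx6 and Stx16) and at the plasma membrane (Stx2, Stx3 and Stx4a). Stx5a and Stx18 act between the endoplasmic reticulum and the Golgi and so lie outside the endosomes and plasma membrane.

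RNA came from 6 samples of C2C12 cells, an established wild-type mouse myoblast line that forms myotubes in low serum. The 3 H19 siRNA arrays came from cells given an siRNA that targets mouse H19 (simH19), and the 3 control siRNA arrays from cells transfected with a control siRNA (siCon). In both groups the cells grew in 10% fetal bovine serum, were moved to 2% horse serum at about 90% density, were transfected on day 1 of differentiation and were collected 40 h later. The labels name 1 H19 siRNA and do not say whether the triplicates were cultures started apart. The p-values therefore rest on the spread among these samples, and that spread may be technical. H19 is a long noncoding RNA from an imprinted locus and the precursor of the microRNA miR-675.

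The deposited values are log2 expression of probe sets. The authors computed them with RMA, which corrects background, equalises the distributions of the arrays and summarises probes. Differences are H19 siRNA minus control siRNA on that log2 scale, with the moderated standard error (SE) and 95% interval of limma fitted over 21559 units, and a unit was called at a Benjamini-Hochberg adjusted p under 0.05. A unit is 1 probe set per gene, or a probe set listed under several genes. H19 itself had no listed probe set, and knockdown was followed on one annotated to both Mir675 and Supt6. It read 10.38, 10.28 and 10.37 with H19 siRNA, against 12.21, 12.22 and 12.27 with control siRNA. Its level was thus 26.9% of control (limma adjusted p = 1.80e-05). A probe set annotated to Supt6 alone averaged 10.35 with H19 siRNA and 10.41 with control siRNA, or 95.7% of control (limma adjusted p = 0.594). Pairs of arrays (15) correlated with Pearson's r of 0.9958 to 0.9975 across rows. The mean over 8 muscle markers (Myod1, Myog, Des, Myh3, Ckm, Acta1, Cdh15 and Mymk) was 11.47 to 11.53 on the H19 siRNA arrays and 11.34 to 11.36 on the control arrays. The mean over 5 neuron markers was also higher on every H19 siRNA array, at 6.81 to 6.83, against 6.72 to 6.78 on the control arrays. The means of 5 macrophage markers (5.79 to 5.85 with H19 siRNA, 5.81 to 5.84 with control siRNA) and of 3 adipocyte markers (5.46 to 5.55 with H19 siRNA, 5.43 to 5.58 with control siRNA) overlapped. The macrophage marker Cd68 averaged 7.86 with H19 siRNA and 8.05 with control siRNA, without overlap (limma adjusted p = 0.278). Csf1r, from the same list, went the other way without overlap. It averaged 5.90 with H19 siRNA and 5.81 with control siRNA (limma adjusted p = 0.608). Limma called 0 of these 21 markers, against 0.199% of all units. An unadjusted limma p under 0.05 was reached by 7 of the 21, against 10.9% of all units. These 7 were 5 of the 8 muscle markers and 1 neuron marker, all higher, and 1 macrophage marker, lower. The part of these marker differences in the results below was not tested. In bulk RNA, fewer cells of a type and less RNA per cell cannot be told apart.

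Stx12, also called syntaxin 13, is a Qa-SNARE of early and recycling endosomes. Its probe set read 10.42, 10.47 and 10.48 with H19 siRNA, against 10.89, 10.92 and 10.89 with control siRNA. Every H19 siRNA array lay below every control array. The mean was 10.46 ± 0.03 with H19 siRNA and 10.90 ± 0.02 with control siRNA (SD, n = 3 each). The difference of -0.44 (SE 0.03) corresponds to 73.6% of the control level, with a 95% interval from 69.5% to 77.9%. Stx12 was selected on this contrast, as the last of the 8 largest decreases among the 15 called genes with 1 symbol that were lower, so its values are a description with no test; the other 9 genes were chosen by their family name around it, with results of these data known. Just inside that choice stood Thbd at -0.49 and just outside it Srp19 at -0.44. The array spread of Stx12 was small, with a pooled SD of 0.027 against a median of 0.065 over all units. It was not particular to Stx12, since the other 9 members ran from 0.012 (Stx5a) to 0.069 (Stx3), with Stx4a at 0.027.

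The gene lies on chromosome 4. The 250 bases before its RefSeq start (GRCm38.p6, chr4:132884459-132884708, minus strand) are shown because this member had the widest difference. Those of Stx7 (chr10:24149039-24149288, plus strand, the first of its 2 listed starts) are shown beside them as those of an endosomal Qa-SNARE with a difference of -0.0047. Both run 5′ to 3′, and capitals mark each CG dinucleotide, which reads the same on both strands.
Stx12: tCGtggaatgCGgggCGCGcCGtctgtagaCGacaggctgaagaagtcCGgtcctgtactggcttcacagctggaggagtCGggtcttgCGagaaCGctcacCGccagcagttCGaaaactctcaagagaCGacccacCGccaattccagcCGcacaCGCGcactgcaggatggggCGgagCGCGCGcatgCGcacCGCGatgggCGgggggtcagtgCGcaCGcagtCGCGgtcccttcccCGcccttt
Stx7: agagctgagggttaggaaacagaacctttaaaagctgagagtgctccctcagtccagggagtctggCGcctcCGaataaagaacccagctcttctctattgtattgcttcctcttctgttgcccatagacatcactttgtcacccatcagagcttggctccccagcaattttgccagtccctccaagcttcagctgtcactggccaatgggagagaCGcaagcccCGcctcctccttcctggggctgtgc
The Stx12 window held 30 CG and was 66.0% G or C, and the Stx7 window held 4 CG and was 54.0% G or C. Windows rich in CG were not confined to Stx12, since Stx4a held 23 (66.4% G or C), Stx18 held 17, and Stx6 and Stx8 held 16 each, while the second listed start of Stx7 had 7. The 14 listed windows of the 10 members held from 2 to 30 CG, the Stx12 window most. Over all 32851 windows of this length the median was 6 CG, 92.1% held at least 1, and 5.94% held at least as many as Stx12. The E-box letters CANNTG, the motif bound by the muscle regulators MyoD and myogenin, were searched on both strands, which a palindrome makes the same. They stood once in the Stx12 window and once in the Stx7 window, and they were found in 9 of the 14 member windows and in 66.2% of all windows. These matches describe the letters and do not identify bound sites.

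**Figure D1:**
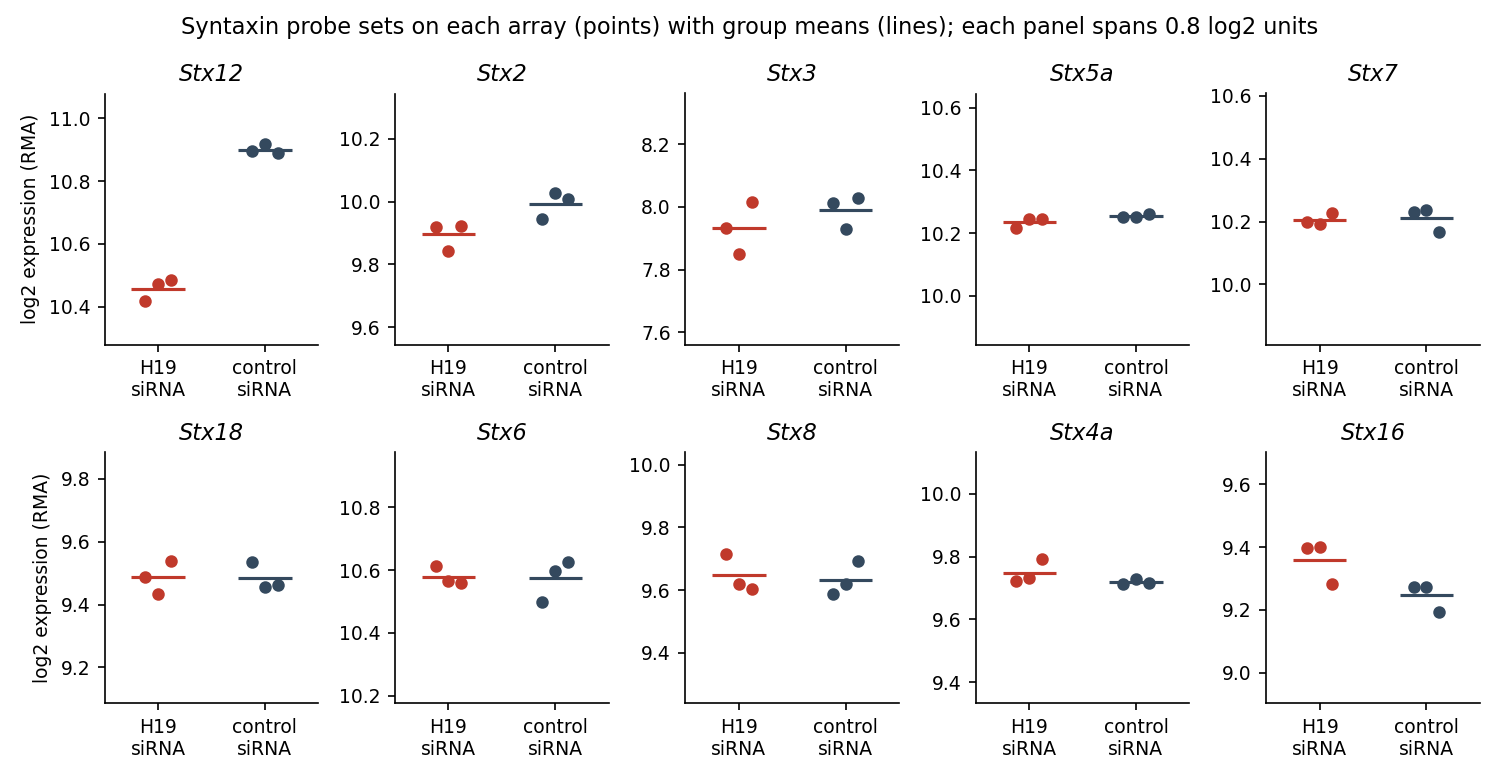
Log2 expression of the 10 syntaxin probe sets on each array, H19 siRNA left (red) and control siRNA right (blue), with a line at each group mean. All panels span the same log2 range, so distances can be compared between panels. Stx12 separates, at 10.42 to 10.48 with H19 siRNA against 10.89 to 10.92 with control siRNA, and the other panels show differences between -0.10 and 0.11.

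None of the other endosomal and trans-Golgi syntaxins was called. Stx7, the Qa-SNARE of late endosomes and lysosomes, read 10.20, 10.19 and 10.23 with H19 siRNA and 10.23, 10.24 and 10.17 with control siRNA. The groups overlapped, and the difference was -0.0047 with a 95% interval from -0.09 to 0.08. Stx8, a Qc-SNARE that pairs with Stx7, read 9.72, 9.62 and 9.60 with H19 siRNA, against 9.59, 9.62 and 9.69 with control siRNA. These groups overlapped too, with a difference of 0.01 (-0.10 to 0.12). Stx6, a Qc-SNARE of the trans-Golgi network and early endosomes, read 10.61, 10.56 and 10.56 with H19 siRNA and 10.50, 10.60 and 10.62 with control siRNA. Its difference was 0.0044 (-0.10 to 0.11), and its lowest and its highest array were both control arrays.

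Stx16, the Qa-SNARE that receives vesicles from endosomes at the trans-Golgi network, pointed the other way from Stx12. It read 9.40, 9.40 and 9.28 with H19 siRNA, against 9.27, 9.27 and 9.19 with control siRNA. All H19 siRNA arrays lay above all control arrays, although H19 siRNA replicate 3 cleared the highest control array by little. The mean was 9.36 ± 0.07 with H19 siRNA and 9.25 ± 0.05 with control siRNA (SD, n = 3 each), a difference of 0.11 (SE 0.05, 95% interval 0.0016 to 0.23). It did not pass, with a limma adjusted p of 0.455. Besides Stx12 it was the one member with an unadjusted limma p under 0.05, a level that 10.9% of all units reached.

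None of the 3 plasma membrane syntaxins was called. Stx2, known for cytokinesis as well as exocytosis, read 9.92, 9.84 and 9.92 with H19 siRNA, against 9.94, 10.03 and 10.01 with control siRNA. The groups did not overlap. The difference was -0.10 (SE 0.04, 95% interval -0.19 to 0.00038), with a limma adjusted p of 0.463. Stx3, the apical syntaxin of polarised cells, read 7.93, 7.85 and 8.01 with H19 siRNA and 8.01, 7.93 and 8.03 with control siRNA. Its groups overlapped, with replicate 2 low in both, and the difference was -0.06 (-0.18 to 0.07). Stx4a, the syntaxin of GLUT4 insertion, read 9.72, 9.73 and 9.79 with H19 siRNA, against 9.71, 9.73 and 9.72 with control siRNA. Its difference was 0.03 (-0.05 to 0.11), and H19 siRNA replicate 3 stood above the other 5 arrays.

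The syntaxins of the early secretory pathway differed by 0.02 or less in either direction. Stx5a, the Qa-SNARE of transport to and within the Golgi, read 10.22, 10.24 and 10.24 with H19 siRNA, against 10.25, 10.25 and 10.26 with control siRNA. Its groups did not overlap, but the gap was narrow and the difference was -0.02 (-0.09 to 0.05). Stx18, the Qa-SNARE of retrograde transport into the endoplasmic reticulum, read 9.49, 9.43 and 9.54 with H19 siRNA and 9.54, 9.45 and 9.46 with control siRNA. Its groups overlapped, with a difference of 0.0020 (-0.10 to 0.10).

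**Figure D2:**
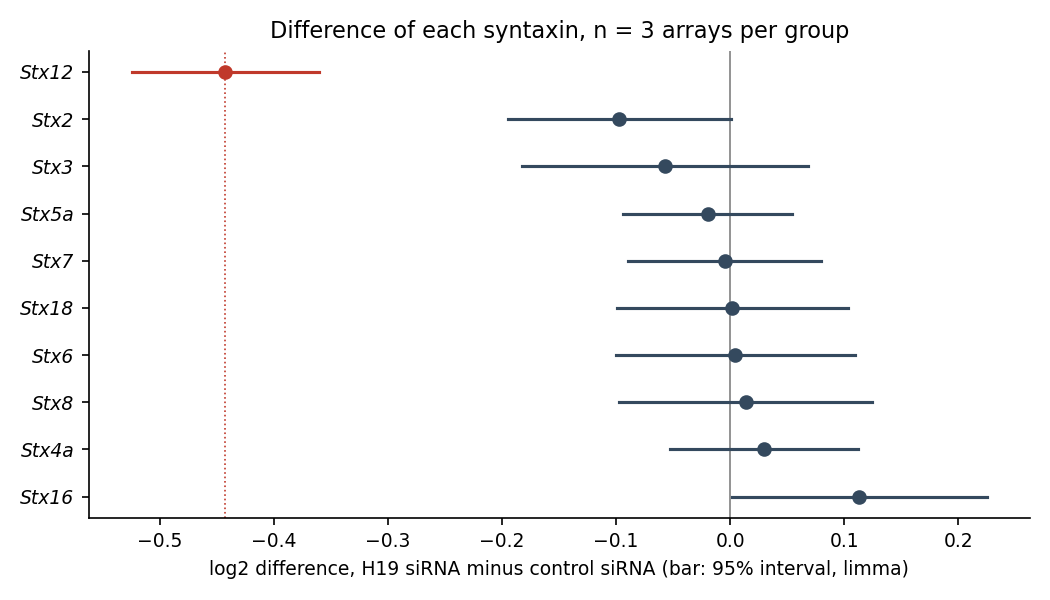
Difference of each syntaxin (point) on the log2 scale, H19 siRNA minus control siRNA, with its 95% interval from limma (bar, n = 3 arrays per group). The dotted line marks the Stx12 difference of -0.44, which lies outside the intervals of the other 9 genes. The lowest of their bounds is -0.19, that of Stx2. Stx12 was selected for its decrease, and 12 of the 21559 units, Stx12 among them, fell at least that far.

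Of the 10 members, 1 was called, Stx12, which the choice of the family used. Over all units 0.199% were called in either direction, 0.0742% lower and 0.125% higher. Of the other 9 members limma called 0, with adjusted p-values from 0.455 to 0.992. Their differences ran from -0.10 for Stx2 to 0.11 for Stx16, 4 below and 5 above 0 (7 below and 2 above after each array was centred on its median). Their median was 0.0020, against 0.014 over all units. The 95% interval of each of the 9 excluded a decrease of the size seen for Stx12. The bound nearest to the Stx12 difference was that of Stx2, at -0.19 or 87.4% of control. Stx12 was selected for its decrease, and 12 of the 21559 units, Stx12 among them, fell at least that far. The comparison is thus a description and does not set the 9 genes apart. Groups did not overlap for 3 of the 9 (Stx2 and Stx5a lower, Stx16 higher), as they did not for 17.6% of all units (7.09% lower and 10.5% higher). On the level of single arrays, the mean of the 9 was 9.68 ± 0.02 with H19 siRNA and 9.68 ± 0.01 with control siRNA (SD, n = 3 each). The Stx12 value minus that mean was 0.73, 0.82 and 0.80 with H19 siRNA, against 1.22, 1.24 and 1.20 with control siRNA. Since Stx12 was selected on this contrast and the mean of the 9 hardly differed, this restates its own difference.

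The test could not show small changes in the other members. At their standard errors of 0.03 to 0.05, a difference between 0.25 (Stx5a) and 0.43 (Stx3) would have been needed to reach the largest p that was called. The count of 1 member called became 0 in the fit with all rows as units and without any 1 of 5 of the 6 arrays (control siRNA replicate 1, 2 or 3, H19 siRNA replicate 1 or 3), while the Stx12 difference stayed between -0.46 and -0.42.

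The other measured syntaxins were 4 genes (Stx17, Stx19, Stx11 and Stx1a). Limma called 0 of the 4, with 0 at an unadjusted p under 0.05, against 0.199% and 10.9% of all units, so counts of 0 among so few genes are near the background. Stx17, the syntaxin of autophagosomes, differed by -0.04 (95% interval -0.16 to 0.07), Stx19 by 0.03 and Stx11 by 0.01, and the groups overlapped for all 4.

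The machinery that works with syntaxins was followed in 8 lists (other syntaxins, Qb and Qc SNAREs, R-SNAREs, SM proteins, disassembly factors, tethers, endosome and recycling genes, and GLUT4 vesicle genes), in which 79 of 81 genes were measured. Limma called 0 of the 79, and with 0.199% of all units called a list of this size holds too few genes for that count to set it apart. At an unadjusted p under 0.05 there were 7 of the 79, 6 lower and 1 higher, against 10.9% of all units (4.25% lower and 6.61% higher). No test of the lean to lower values was made. Groups did not overlap for 16 of the 79, 10 lower and 6 higher, against 17.6% of all units (7.09% lower and 10.5% higher). The median difference of the 79 genes was -0.00022, against 0.014 over all units. Vamp2 and Lnpep were not analysed here.

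Among 12 Qb and Qc SNAREs, the partners in the bundle, 8 differed downward and 4 upward (9 and 3 after median centring), with a median of -0.01. Snap23, the widely expressed partner of plasma membrane syntaxins, read 12.12, 12.14 and 12.14 with H19 siRNA, against 12.23, 12.22 and 12.20 with control siRNA. The groups did not overlap, and the difference of -0.08 had a limma adjusted p of 0.416. It passed with an intensity trend and robust variance (adjusted p = 0.0478), a setting that called 2.02% of all units, against 0.199% in the main fit. Bet1l, a Golgi Qc-SNARE, differed by -0.06 and Snap47 by 0.06.

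Among 8 R-SNAREs, which sit mostly on vesicles, Vamp7 and Vamp5 pointed in opposite directions. Vamp7, the R-SNARE of late endosomes and lysosomes, read 10.49, 10.52 and 10.58 with H19 siRNA, against 10.67, 10.65 and 10.63 with control siRNA. All H19 siRNA arrays were lower, by 0.12 in the mean, with a limma adjusted p of 0.318. Vamp5, which was described in mouse as myobrevin for its abundance in muscle, read 8.68, 8.75 and 8.79 with H19 siRNA, against 8.61, 8.65 and 8.64 with control siRNA. All H19 siRNA arrays were higher, with a difference of 0.11 and a limma adjusted p of 0.400. Vamp8, another endosomal R-SNARE, differed by -0.08 with overlapping groups, and the median of the list was -0.0020.

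Of 7 SM proteins, 6 differed downward (7 with median centring and 4 when quantiles were equalised again), with a median of -0.02. Scfd1, the SM protein of Stx5a and Stx18, read 10.24, 10.27 and 10.32 with H19 siRNA, against 10.39, 10.44 and 10.41 with control siRNA. Vps33b, an SM protein of endosomes, read 9.72, 9.66 and 9.63 with H19 siRNA, against 9.84, 9.80 and 9.78 with control siRNA. Both were lower on every H19 siRNA array, by differences of -0.13 each, with limma adjusted p-values of 0.265 for Scfd1 and 0.295 for Vps33b. Scfd2 differed by -0.10 (adjusted p = 0.494), also without overlap. Of the 4 disassembly factors, Nsf, the ATPase itself, differed by -0.09 (adjusted p = 0.393), while its adaptors Napa and Napb differed by 0.07 and 0.05. For these 3 genes the groups did not overlap. Over all units, 17.6% had groups without overlap (7.09% lower and 10.5% higher).

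Among the 13 tethers, which hold membranes together before fusion, the median was 0.0021 (-0.0144 after median centring) and 0 genes reached an unadjusted p under 0.05. Tgfbrap1, a subunit of the endosomal CORVET tether, differed by 0.10, Vps41 of the lysosomal HOPS tether by -0.07, and Eea1, the early endosome tether, by 0.05. Among the 22 endosome and recycling genes, 15 differed upward and 7 downward (12 and 10 after median centring), with a median of 0.02. Ehd3, an ATPase of recycling endosomes, had the smallest p of all 79 genes. It read 10.28, 10.25 and 10.25 with H19 siRNA, against 10.41, 10.41 and 10.44 with control siRNA. All H19 siRNA arrays were lower, and the difference of -0.16 (SE 0.03, 95% interval -0.23 to -0.08) had a limma adjusted p of 0.165. It passed with an intensity trend and robust variance (adjusted p = 0.0149) and with a filter at the median of all units (0.0265). Those settings called 2.02% and 2.47% of the units they tested, against 0.199% in the main fit. Hgs and Stam, which sort receptors on endosomes, both differed by 0.08, with adjusted p-values of 0.474 and 0.571. Among 9 GLUT4 vesicle genes 0 reached an unadjusted p under 0.05, and Rab10 at 0.05, Sort1 at -0.06 and Slc2a1 at -0.03 had the smallest p.

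**Figure D3:**
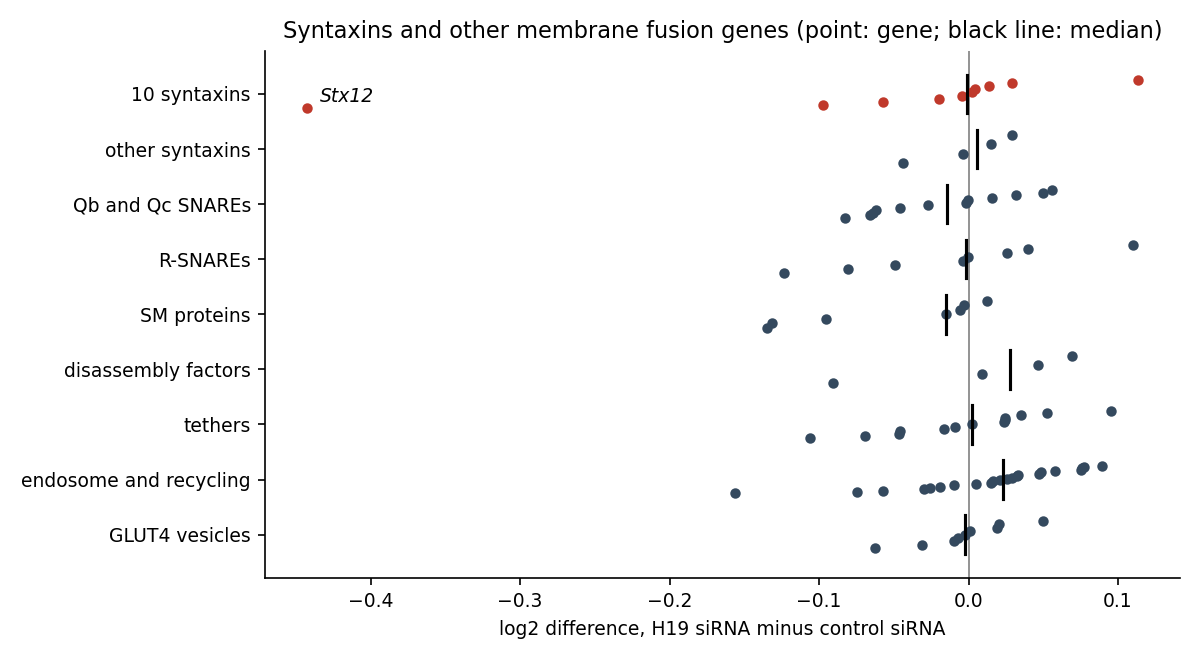
Log2 difference, H19 siRNA minus control siRNA, for the 10 syntaxins (red) and the genes of the 8 lists (blue), 1 point per gene, with a black line at each list's median. Stx12, selected for its decrease, lies at -0.44, outside the range of the 79 list genes, which runs from -0.16 (Ehd3) to 0.11 (Vamp5).

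None of the measured genes beside Stx12 on chromosome 4 was called. The 3 nearest named genes on each side were, in order of position, Rpa2, Themis2 and Ppp1r8, then Gm13033, Fam76a and Fgr. Ppp1r8, a nuclear inhibitor of a protein phosphatase and the nearest on its side, read 9.98, 9.90 and 9.97 with H19 siRNA, against 9.88, 9.93 and 9.90 with control siRNA, a difference of 0.05 (95% interval -0.04 to 0.14). Fam76a read 9.57, 9.55 and 9.58 with H19 siRNA, against 9.54, 9.51 and 9.52 with control siRNA, a difference of 0.04 without overlap. The other 4 overlapped between groups, with differences of 0.03 for Rpa2, a subunit of replication protein A, 0.0042 for Themis2, -0.02 for the predicted gene Gm13033 and 0.10 for Fgr, a Src-family kinase. The limma adjusted p-values of the 6 ran from 0.566 to 0.993. None of the 6 intervals reached -0.44, the difference for which Stx12 was selected. Over all 21559 units, 12 fell at least that far, Stx12 among them.

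**Figure D4:**
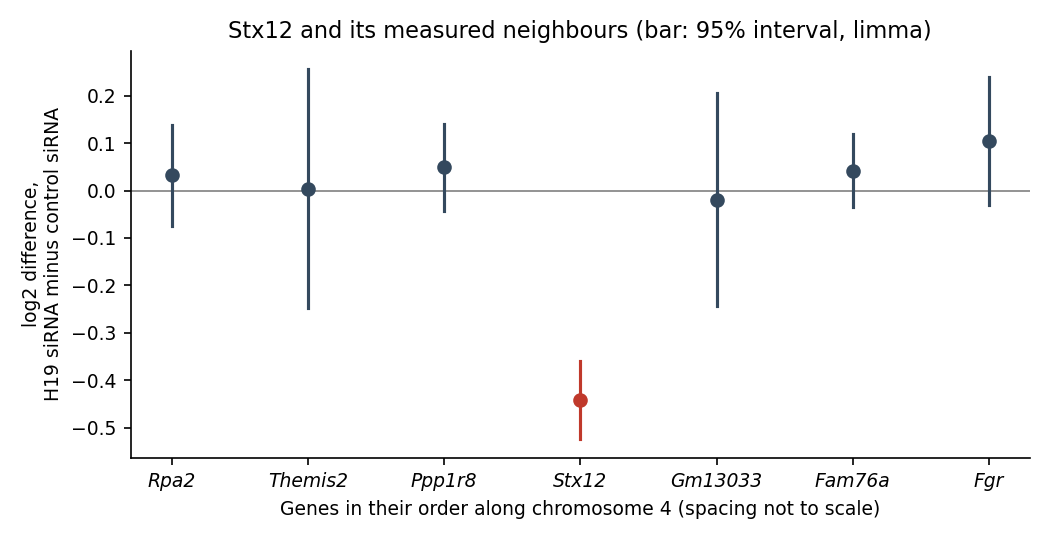
Log2 difference, H19 siRNA minus control siRNA, of Stx12 (red) and of the 3 nearest named genes on each side (blue) in their order along chromosome 4, with 95% intervals from limma. The neighbours lie between -0.02 and 0.10, and the interval of Themis2, the widest, ends at -0.25.

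The 5 genes whose values followed Stx12 most closely were sought among 10028 singly named genes at or above the median level. Pearson's r over the 6 arrays was 0.998 for Saa3, 0.996 for Kitl, 0.996 for Slc36a4, 0.995 for Dcn and 0.995 for Ptn. The arrays fall into the 2 treatment groups, so these values reflect mainly the shared group difference. Saa3, an acute-phase protein, read 9.42, 9.48 and 9.46 with H19 siRNA, against 10.08, 10.10 and 10.02 with control siRNA. Kitl, the ligand of the KIT receptor, read 9.42, 9.43 and 9.45 with H19 siRNA, against 9.67, 9.67 and 9.64 with control siRNA. Slc36a4, an amino acid transporter, read 9.89, 9.95 and 9.95 with H19 siRNA, against 10.16, 10.18 and 10.16 with control siRNA. In all 3 the groups stood clear of each other, by differences of -0.61, -0.23 and -0.24. Dcn, a matrix proteoglycan, differed by -0.50 and Ptn, the growth factor pleiotrophin, by -0.39. None of the 5 is a syntaxin or a member of the 8 lists.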

How the data were processed

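The deposited log2 values came from RMA, run by the authors with Affymetrix Expression Console according to the submitters' processing notes. No version is given in the sources used here. RMA compresses differences near background. The 35556 rows held values from 2.97 to 14.6 with array medians from 6.73 to 6.78, so they were neither centred nor ratios. Scanner files and detection calls were not used here, and 6 arrays limit the precision.

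GEO's platform annotation gave 1 symbol for 21789 rows, several for 1621 and none for 12146. The probe set with the highest mean stood for each gene, and rows with several symbols stayed in unnamed, which left 21559 units. Levels of different probe sets also reflect probe affinity. The groups were compared with limma 3.58.1 (lmFit, eBayes; R 4.3.3), two-sided, without covariate or filter, and the fit was tested on simulated data. Alternatives changed the variance model, a filter on dim units (30th percentile or median of units), the scaling, array weights, the units, the replicate block and the arrays used.

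Named were the members, the targeted probe set, called genes or else up to 3 with the smallest p per list, the 3 nearest named genes on each side of Stx12 and the 5 most like it. Thbd, Srp19, Csf1r and Supt6 were added after their values were seen. The members and lists were chosen with earlier results of these data known. Sequences and gene order are RefSeq's for GRCm38.p6, where all 10 members matched.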

Additional observations from a re-analysis of the deposited data

How the results depend on the processing

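Of 15 alternatives, 8 kept Stx12 called and 7 called no syntaxin. The count of syntaxins called was 0 with all rows as units and 0 with the replicate block. It ran from 0 to 1 without 1 array, with 0 in 5 of the 6 such fits; a fit without an array also has fewer degrees of freedom. The Stx12 difference lay between -0.46 and -0.42 in all 15. The other 9 members gave a count of 0 in all 15, with differences from -0.12 to 0.15 and adjusted p-values of at least 0.214. The count over the list genes was 2 of 79 under an intensity trend with robust variance (Ehd3 and Snap23), where 2.02% of all units were called. It was 1 of the 74 kept by the filter at the median (Ehd3), where 2.47% of the kept units were called. In the other alternatives it was 0. The targeted probe set stayed between -1.91 and -1.86.

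Among the members and the named list genes, signs changed only for 7 whose adjusted p never passed. After median centring Stx18 was at -0.0144, Stx6 at -0.0120, Stx8 at -0.0026 and Stx11 at -0.0014, and Stx19 was at -0.0064 after a second quantile normalisation. Without 1 array the lowest and highest values were -0.023 and 0.028 for Stx18, -0.033 and 0.030 for Stx6, -0.027 and 0.0078 for Stx7, -0.021 and 0.043 for Stx8, -0.0111 and 0.060 for Stx19 and -0.12 and 0.0051 for Sort1. Median centring lowered every difference by the same amount. The cause of the other sign changes was not tested.

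Over all units, 43 were called, against 435 with an intensity trend, 111 and 266 with filters at the 30th percentile and the median, 70 with array weights, 11 with all rows as units, 3 with the replicate block and 1 to 21 without 1 array. The replicate numbers are shared by both groups. Deviations of same-numbered arrays correlated at -0.02, -0.13 and -0.14 for replicates 1, 2 and 3, and no array correlated best with its own number. These values gave no sign that the numbers pair the samples, but 3 arrays per group are too few to exclude it.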
